A study of Mus musculus with 4 samples.

Results

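The subject is a set of 10 genes with which the intestinal epithelium defends its surface: Saa1, Saa2, Saa3, Ido1, Nos2, Duox2, Duoxa2, Dmbt1, Lypd8 and Pigr. They were taken by symbol from the 28694 genes of the deposited tables, and all 10 were found. Single-cell RNA was counted in 4 droplet libraries, 2 of them made from distal colon (DC) and 2 from the small intestine's 8th section (Si8), all from RedMUC298trTg mice aged 6 to 8 weeks. These mice express an mCherry-tagged mucin, which marks goblet cells. Live epithelial cells were sorted on whether mCherry was seen, with a C57Bl6 mouse to set the negative gate. The transgene's promoter, the number of mice per library and whether a library holds mCherry-negative cells are not given in the sources used here. No label ties the 2 libraries of a tissue to separate mice, so p-values measure only the spread between these libraries, which may be technical.

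Each of these genes acts where the epithelium meets the gut contents. Serum amyloid A proteins (Saa1, Saa2, Saa3) carry retinol and lipid and are made on interleukin-22 and bacterial signals. Ido1 breaks down tryptophan to kynurenine and Nos2 makes nitric oxide, and both are classical targets of interferon-gamma. Duox2 makes hydrogen peroxide at the apical membrane and needs Duoxa2 to mature. Dmbt1 is a secreted scavenger-receptor glycoprotein that binds bacteria, Lypd8 is a lipid-anchored protein that binds flagella and keeps motile bacteria off the colonic surface, and Pigr is the receptor that carries dimeric IgA across the epithelium.

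The 4 libraries held 1536 to 5098 cell barcodes and 26075303 to 66880457 unique molecular identifiers (UMIs, each marking a single captured RNA molecule). After filtering and doublet removal 10243 of 10827 barcodes were kept, with a median of 12288 to 21037 UMIs per cell in a library. The labels call the cells goblet cells, and the data go part of the way with that: Muc2, the gel-forming mucin of goblet cells, was at 3243 and 3572 counts per 1000000 UMIs (CPM) in the DC libraries and at 9745 and 6639 CPM in the Si8 libraries, but only 4251 of the 10243 cells fell in clusters led by goblet markers. The rest fell in clusters led by cell cycle, Paneth, absorptive and enteroendocrine genes. Each cluster has a single name for all 4 libraries. Cluster 2, named by Paneth genes, held 295 and 677 DC cells beside 303 and 264 Si8 cells. Yet Paneth markers over all cells summed to 1387 to 1494 CPM in DC, against 31841 to 57413 CPM in Si8. Cluster 4, named by small intestinal absorptive markers, held 184 and 828 DC cells. Those names may not suit DC cells, and goblet-like shares in DC rest on them. Ptprc, the pan-leukocyte marker, was at no more than 0.90 CPM in any library, and 1 cell in the first Si8 library held 10646 of that library's 10827 UMIs of Igha, Igkc and Jchain. Barcodes shared by 2 libraries numbered 1 to 15 a pair, against 3.7 to 14.1 expected from their sizes. The first Si8 library stood apart from the other 3 in Mxd1, which was at 60.7 and 57.2 CPM in the DC libraries, against 188 and 57.2 CPM in the Si8 libraries. In the text the library values of a tissue are given in the order first, second.

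Cells were split by Mxd1 and Muc3, and none of the 10 genes took part in the split. Mxd1 encodes a partner of Max that opposes Myc, and Muc3 a membrane mucin of the brush border. A cell was Mxd1-high with at least 2 Mxd1 UMIs and 100 CPM, and Muc3-high with at least 4 UMIs and 200 CPM of the rows Muc3 and Muc3a together. Cells past both thresholds formed a class of their own, both-high, and the rest are called other cells. The Mxd1-high class held 181 and 236 cells of the DC libraries and 272 and 170 cells of the Si8 libraries. The Muc3-high class held 420 and 1806 DC cells and 259 and 619 Si8 cells, the both-high class 88 and 367 DC cells and 300 and 234 Si8 cells, and the other cells 1142 and 2315 in DC and 660 and 1174 in Si8. These classes are ranges of 2 transcripts, not cell types. They were not matched for Muc3 between the tissues. Muc3-high cells held 1544 and 1666 CPM of Muc3 in DC, against 381 and 385 CPM in Si8. Both-high cells held 3001 and 2933 CPM in DC, against 614 and 477 CPM in Si8. Stricter thresholds gave 436 and 1827 Muc3-high cells in DC, but 67 and 198 in Si8. Of the 1848 cells past the Mxd1 threshold 531 had exactly 2 UMIs, while 2260 cells had 1 UMI and 298 had enough UMIs but too low a CPM. Of the 4093 cells past the Muc3 threshold 251 had exactly 4 UMIs, while 629 cells had 3 UMIs and 352 had enough UMIs but too low a CPM.

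The classes were not made up of the same clusters in the 2 tissues. Mxd1-high cells were 90.6% and 82.2% goblet-like in DC and 88.6% and 90.0% goblet-like in Si8, mostly of clusters 8 and 1. Cluster 8 made up 53.0% and 30.1% of Mxd1-high cells in DC, against 46.3% and 14.7% in Si8. Cluster 1 made up 25.4% and 37.7% in DC, against 33.8% and 71.2% in Si8. The part of this mix in the Mxd1-high differences between tissues and libraries was not tested. Muc3-high cells were 0.00% and 2.88% goblet-like in DC, where cluster 4 led, against 35.9% and 20.2% in Si8, where clusters 1 and 5 led. Both-high cells were 1.14% and 1.63% goblet-like in DC, where they came from clusters 10 and 4, against 83.7% and 78.2% in Si8, where they came from clusters 8 and 1. Cluster 4 was led by Gsdmc4, Gsdmc2 and Dmbt1, cluster 10 by the colonocyte genes Car4, Ceacam20 and Slc26a3, and cluster 8 by 2010109I03Rik, Saa1 and Ido1, although none of the 10 genes, nor Mxd1 or Muc3, was used for clustering. Any DC to Si8 difference within the Muc3-high or both-high class is also a difference between clusters and in Muc3 level. These cannot be told apart in the class as a whole.

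Over all cells 7 of the 10 genes were lower in DC than in Si8 and none was higher, by edgeR's quasi-likelihood test on the UMIs summed per library, with Benjamini-Hochberg adjusted p under 0.05 over 13084 genes. The 7 were Saa3, Ido1, Nos2, Duox2, Duoxa2, Dmbt1 and Lypd8. Saa3 passed the count filter only through Si8, so it could be called only as lower in DC. Of all genes tested 24.9% were called either way, 12.9% higher and 12% lower. The median log2 fold change of the 10 genes was -2.19, against 0.04 over all genes tested. A sum over all cells moves with the mix of cells as well as with RNA per cell, and these cannot be told apart in it. The 24 goblet markers summed to 50926 to 58199 CPM in DC, against 153176 to 220517 CPM in Si8, the 14 Paneth markers to 1387 to 1494 CPM in DC, against 31841 to 57413 CPM in Si8, and 10 dissociation stress genes to 9656 to 13146 CPM in DC, against 4817 to 5840.4 CPM in Si8. Markers of T and natural killer cells summed to at most 0.634 CPM in DC and to 6.16 to 54.5 CPM in Si8. Their part in the results was not tested. Values were scaled by TMM. With library totals alone the median of all genes moved to 0.45 and 80.6% of calls were higher in DC, against 51.9% with TMM.

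Among Mxd1-high cells 8 of the 10 genes had enough UMIs to be tested. In these cells Saa1 and Saa2 were higher in DC, and Ido1, Duox2, Duoxa2, Dmbt1 and Lypd8 were lower in DC. Of the 9261 genes tested 11.9% were called higher and 13.6% lower. Saa2 passed the count filter only through DC, so it could be called only as higher. With library totals alone 84.2% of all calls were higher, against 46.7% with TMM. Among Muc3-high cells 6 of 8 genes tested (Ido1, Nos2, Duox2, Duoxa2, Dmbt1 and Lypd8) were lower in DC and none was higher, with 34.2% of genes called, 17.3% higher and 16.8% lower (74.1% of calls higher with library totals, 50.8% with TMM). Among both-high cells Dmbt1 was higher and 5 of the 9 genes tested (Ido1, Nos2, Duox2, Duoxa2 and Lypd8) were lower in DC, with 38.5% of genes called, 18.8% higher and 19.7% lower (87.8% of calls higher with library totals, 48.8% with TMM). Among other cells Saa1 was higher and 6 of the 8 genes tested (Ido1, Nos2, Duox2, Duoxa2, Dmbt1 and Lypd8) were lower in DC, with 12.1% of genes called higher and 10.3% called lower (79.5% of calls higher with library totals, 54.0% with TMM). Ido1 in Muc3-high and both-high cells passed the count filter only through Si8, as did Nos2 in Muc3-high, both-high and other cells. Those could be called only as lower in DC. No called direction of the 10 genes turned under library totals, DESeq2 size factors or the DESeq2 Wald test.

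**Figure D1:**
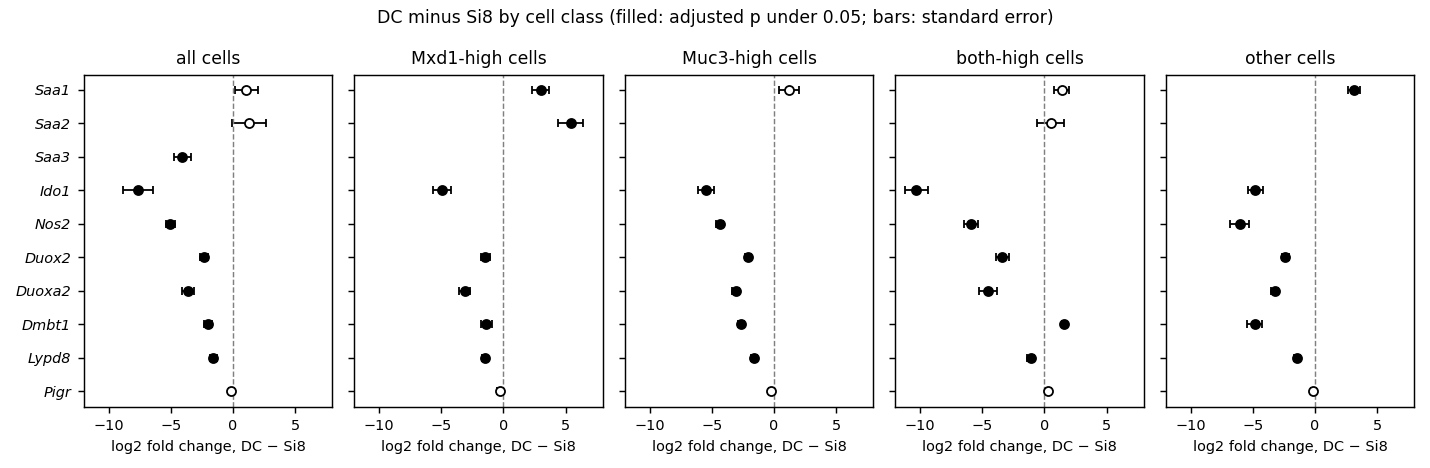
Log2 fold change of the 10 genes, DC minus Si8, over all cells and within each cell class (2 DC and 2 Si8 libraries). Bars are the standard error implied by the test. Filled points have an adjusted p under 0.05, and genes with too few UMIs to test are left out. Ido1, Duox2, Duoxa2 and Lypd8 lay left of 0 in all 5 panels, while Saa1 lay right of 0 in each, filled in Mxd1-high and other cells.

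Saa1 was called higher in DC in 2 of the 4 classes. In Mxd1-high cells it was at 2031 and 954 CPM in the DC libraries, against 229 and 41.8 CPM in the Si8 libraries, and in other cells at 58.3 and 72.6 CPM in DC, against 9.14 and 3.08 CPM in Si8. The groups did not overlap in either class. The log2 fold change was 2.99 ± 0.65 (SE implied by the test) in Mxd1-high cells (adjusted p = 0.00935) and 3.17 ± 0.47 in other cells (adjusted p = 0.00475). Without the first Si8 library these values for Saa1 were 4.59 and 4.10, without the second Si8 library 2.24 and 2.47, and without the first DC library the Mxd1-high value was 2.31. With the top 10% of each library as the class the call was lost in both (log2 0.88 and 0.55), and with classes set on cells thinned to 5000 UMIs it was lost in Mxd1-high cells (1.65, adjusted p = 0.063). Over all cells Saa1 was at 257 and 210.0 CPM in DC, against 148 and 15.8 CPM in Si8, and that difference was not called (1.06 ± 0.91, adjusted p = 0.449). It rested on the first Si8 library: without it Saa1 over all cells was at 3.54 (adjusted p = 5.17e-05), and without the second at 0.16. On cells outside the goblet-like clusters the value was 2.64 (adjusted p = 0.0493), and with stricter cell filters it was -0.014. Muc3-high cells held 11.9 and 47.9 CPM in DC, against 22.6 and 3.34 CPM in Si8, and these ranges overlapped.

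Saa1 was higher in Mxd1-high than in other cells of both tissues. Mxd1-high cells exceeded other cells by 4.68 ± 0.47 on the log2 scale in DC (adjusted p = 1.02e-05) and by 4.55 ± 0.54 in Si8 (adjusted p = 1.29e-05), and the difference between these was 0.13 ± 0.69 (adjusted p = 0.96). Without the first DC library the DC value was 3.79 and without the second it was 5.32. Outside the goblet-like clusters, there were 17 and 42 Mxd1-high cells in DC and 31 and 17 in Si8, and the sums of 17 cells were left out of the fit. There the Saa1 values, each with 1 Mxd1-high library, were 1.87 in DC and 2.88 in Si8, and neither was called. Both-high cells held Saa1 as well, with 2327 and 1672 CPM in DC, against 714 and 126 CPM in Si8.

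Counted per cell, most DC cells of the Mxd1-high class held Saa1. With each cell thinned to 3000 UMIs, 71.8% (95% Clopper-Pearson interval 64.7 to 78.2%) and 58.1% (51.5 to 64.4%) of Mxd1-high DC cells had a Saa1 UMI, against 33.8% (28.2 to 39.8%) and 6.47% (3.27 to 11.3%) of those from Si8. Unthinned, 79.6% and 75.0% of the DC cells had a UMI, against 44.9% and 21.2% of the Si8 cells. The cycling clusters were set beside these for comparison, though they were not shown to lack the gene. There thinned shares came to 3.96% and 9.46% in DC, against 2.73% and 0.72% in Si8. Unthinned they were 19.0% and 46.5% in DC, against 9.09% and 3.88% in Si8. Median depths of the cycling clusters were 20256.5 and 17724 UMIs in DC and 23645.5 and 27441 UMIs in Si8. Median depths of Mxd1-high cells were 6245 and 9908.5 UMIs in DC and 7010.5 and 17552.5 UMIs in Si8. Under stricter filters (1000 genes or more, mitochondrial UMIs up to 10%), 114 of 181 and 177 of 236 Mxd1-high DC cells were left. In Si8 266 of 272 and 168 of 170 were left. The part of the dropped cells in the Saa1 shares was not tested. The Muc3-high shares of 2.86% and 10.5% in DC were near those of the cycling clusters, which themselves hold part of the Muc3-high class (cluster 5 had 32.9% of its cells in the first DC library and cluster 3 had 28.8% in the second). Other DC cells had 8.76% and 14.0%, somewhat above the cycling clusters, against 3.48% and 0.94% of other Si8 cells. Saa1 was lower in Muc3-high than in other DC cells (log2 -1.17 ± 0.43, adjusted p = 0.0437), but not by the DESeq2 Wald test (-1.31, adjusted p = 0.158), and the value was -2.40 without the second DC library. The part of free RNA in these low levels was not tested. Intervals cover counting error only.

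Saa2 and Saa3 gave few UMIs. Saa2 had 29 and 15 UMIs in Mxd1-high DC cells (19.1 and 6.59 CPM), against 1 and 0 UMIs in those from Si8. The ratio of the summed levels was 71.6 (exact counting interval 12.2 to 2893), and the difference was called by edgeR (log2 5.39, adjusted p = 0.00384). Its size moved with the library left out, from 4.52 without the first DC library to 7.59 without the first Si8 library. With the top 10% of each library as the class the call for Saa2 was lost (3.64, adjusted p = 0.266), and on classes set on thinned cells Saa2 was not tested. Within DC Saa2 was higher in Mxd1-high than in other cells by 4.29 ± 0.45 on the log2 scale (adjusted p = 1.45e-05), where other cells held 1.19 and 0.31 CPM. Saa3 had 1 and 2 UMIs in all cells of the DC libraries, against 16 and 18 UMIs in the Si8 libraries. That is a DC to Si8 ratio of 0.0769 (exact counting interval 0.0151 to 0.244), called lower (adjusted p = 0.011) but not without the first DC library (adjusted p = 0.065) or the second (adjusted p = 0.13).

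Saa1 and Saa2 lie head to head on chromosome 7 of GRCm38, Saa1 at chr7:46740497-46742980 on the minus strand and Saa2 at chr7:46751790-46754313 on the plus strand, with starts 8810 bases apart. Saa3, at chr7:46711998-46715700 on the minus strand, starts 27280 bases from Saa1. The longest coding transcripts of Saa1 and Saa2 were 87.7% identical, and 93.3% identical over their last 300 bases, which are what a 3' library reads. Reads that fit both genes could have been dropped or split between them in the authors' counting, so the split between Saa1 and Saa2 is uncertain. For Saa1 and Saa3 the last 300 bases were 57.0% identical. The 250 bases before each RefSeq start are shown because these neighbours were both higher in Mxd1-high than in other DC cells. They were taken from RefSeq (GRCm38.p6), 5' to 3' on the gene's own strand, at chr7:46742981-46743230 (minus) for Saa1 and chr7:46751583-46751832 (plus) for Saa2. The gene positions above are from GENCODE M21, whose Saa2 start lies inside the RefSeq window, so the distances below count from the RefSeq starts.
Saa1: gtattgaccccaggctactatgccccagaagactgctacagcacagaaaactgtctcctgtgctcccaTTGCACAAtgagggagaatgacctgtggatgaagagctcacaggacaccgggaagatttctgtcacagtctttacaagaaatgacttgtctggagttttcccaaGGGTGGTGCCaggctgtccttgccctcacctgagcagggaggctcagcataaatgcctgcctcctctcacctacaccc
Saa2: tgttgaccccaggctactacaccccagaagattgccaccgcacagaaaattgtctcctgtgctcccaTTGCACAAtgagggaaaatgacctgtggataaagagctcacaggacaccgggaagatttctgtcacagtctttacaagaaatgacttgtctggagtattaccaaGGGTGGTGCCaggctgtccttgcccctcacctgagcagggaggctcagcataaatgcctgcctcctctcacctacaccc
Capitals mark matches on either strand to GGG, any 5 bases and CC, an NF-kB core, and TTNNGCAA, a C/EBP core. The 2 windows were 95.2% identical, and each held 1 match to either motif, the NF-kB core beginning 78 bases before the RefSeq start of Saa1 and 79 before that of Saa2 and the C/EBP core 182 and 183 bases before. No matches overlapped, and neither window held the STAT core TTCNNNGAA. Over the 32851 upstream windows of this length in the table, 45.8% held the NF-kB core, 9.56% the C/EBP core and 7.02% the STAT core.

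Ido1 was scarce in DC and, in Si8, highest in Mxd1-high and both-high cells. In Mxd1-high cells it was at 19.1 and 9.23 CPM in DC, against 508 and 92.9 CPM in Si8. In both-high cells it was at 1.75 and 0.86 CPM in DC, against 1276 and 277 CPM in Si8, and in other cells at 0.33 and 0.59 CPM in DC, against 15.8 and 5.91 CPM in Si8. The groups did not overlap in any class. The log2 fold change of DC against Si8 was -7.62 ± 1.21 over all cells (adjusted p = 0.009), -4.93 ± 0.75 in Mxd1-high cells (adjusted p = 0.00159), -5.45 ± 0.62 in Muc3-high cells (adjusted p = 0.00027) and -4.79 ± 0.62 in other cells (adjusted p = 0.0028). The size rested on the first Si8 library: without it the Ido1 values were -5.39 over all cells, -3.35 in Mxd1-high, -4.66 in Muc3-high and -3.91 in other cells, and each was still called. Without the second Si8 library they were -8.53, -5.69, -6.09 and -5.38.

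Within each tissue Ido1 was higher in Mxd1-high than in other cells. Mxd1-high exceeded other cells by 4.85 ± 0.52 on the log2 scale in DC (adjusted p = 1.93e-05), from 29 and 21 UMIs in Mxd1-high cells, and by 4.85 ± 0.22 in Si8 (adjusted p = 3.1e-09). Without the first DC library the DC value for Ido1 was 4.03 and without the second it was 5.98. With no library block it was 4.91 (adjusted p = 0.0633), and with classes set on cells thinned to 5000 UMIs 3.58 (adjusted p = 0.342). All 29 and 21 of those UMIs lay in cells of goblet-like clusters. Thinned to 3000 UMIs, 6.08% and 3.81% of Mxd1-high DC cells had an Ido1 UMI, against 46.0% and 16.5% of those from Si8, where the cycling clusters had 4.09% and 1.01%. Unthinned, 8.84% and 3.81% of Mxd1-high DC cells had one, against 55.9% and 30.6% of those from Si8.

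Nos2 was low throughout, with 7 and 23 UMIs in all cells of the DC libraries, against 241 and 363 UMIs in the Si8 libraries. In Muc3-high cells it was at 0.47 and 0.59 CPM in DC, against 9.67 and 9.77 CPM in Si8, and in both-high cells at 1.75 and 0.43 CPM in DC, against 32.8 and 19.2 CPM in Si8. The log2 fold change of DC against Si8 was -5.04 ± 0.35 over all cells (adjusted p = 0.000639) and -4.36 ± 0.29 in Muc3-high cells (adjusted p = 1.28e-05). Other DC cells had 2 UMIs in all, against 135 in other Si8 cells, a ratio of 0.015 (exact counting interval 0.0018 to 0.0553). In Si8 Nos2 was higher in Muc3-high than in other cells, 1.37 ± 0.34 on the log2 scale (adjusted p = 0.00817), but not by the DESeq2 Wald test (1.42, adjusted p = 0.0525), and it was 2.15 without the second Si8 library. The Si8 call in Mxd1-high cells (1.34 ± 0.49, adjusted p = 0.042) rested on the first Si8 library, since it was -0.041 without it and 2.74 without the second. In DC the 22 Nos2 UMIs of Muc3-high cells against 2 in other cells made a ratio of 11.4 (exact counting interval 2.81 to 100.4; adjusted p = 0.0487), a call that leaving out either DC library ended (adjusted p = 0.224 and 0.289).

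**Figure D2:**
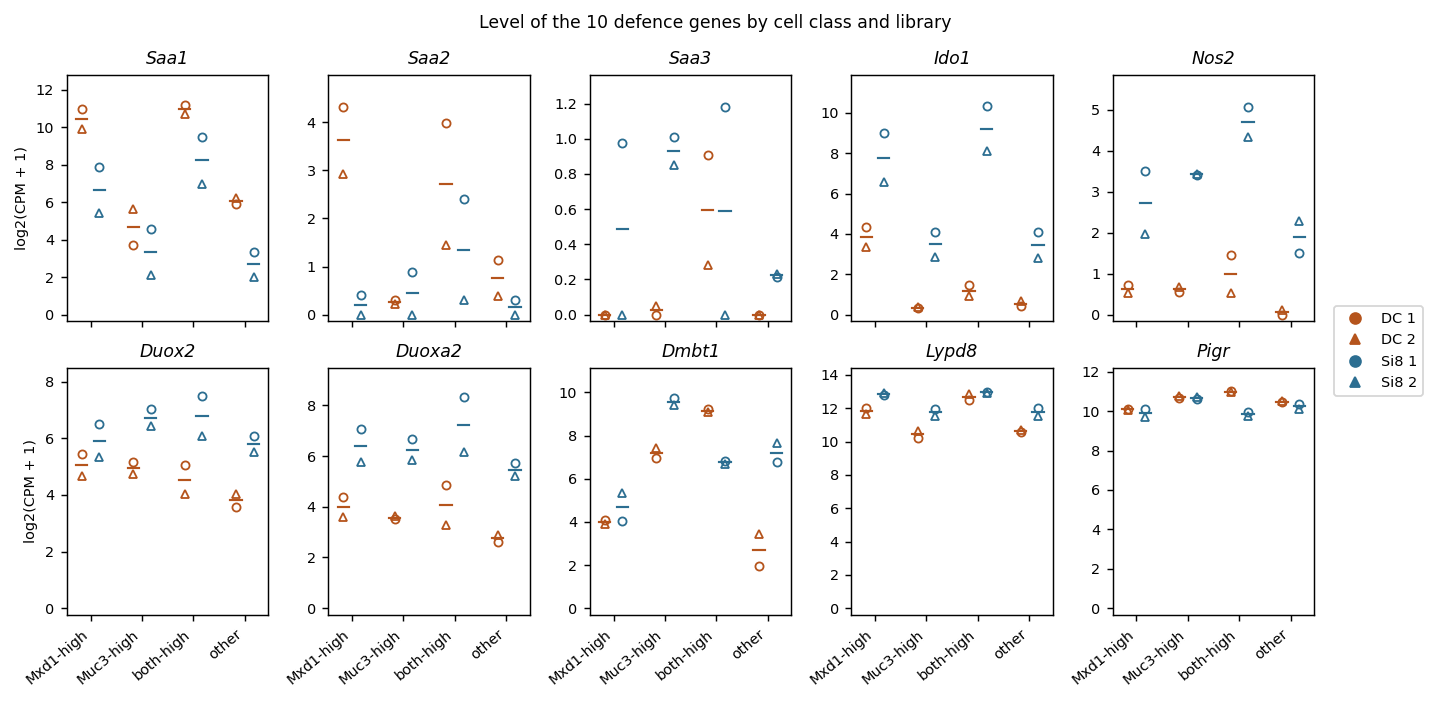
Level of each gene as log2(CPM + 1) in Mxd1-high, Muc3-high, both-high and other cells, for the 4 libraries (circles, first library; triangles, second; lines, mean of the 2). The Saa1 points of Mxd1-high and both-high cells stand above those of Muc3-high and other cells in both tissues, with the DC points on top, while for Ido1, Nos2 and Duoxa2 the Si8 points are above the DC points in every class.

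Duox2 and its maturation factor Duoxa2 were lower in DC in all 4 classes. Over all cells Duox2 was at 21.5 and 20.8 CPM in DC, against 102 and 58.5 CPM in Si8, and Duoxa2 at 8.65 and 9.15 CPM in DC, against 114 and 46.2 CPM in Si8. The log2 fold changes were -2.35 ± 0.31 for Duox2 (adjusted p = 0.00487) and -3.60 ± 0.48 for Duoxa2 (adjusted p = 0.00498, and -2.72 without the first Si8 library). Among Muc3-high cells Duox2 was at 34.9 and 25.9 CPM in DC, against 130.2 and 84.6 CPM in Si8 (-2.11 ± 0.25, adjusted p = 0.000304), and Duoxa2 at 10.4 and 11.3 CPM in DC, against 99.9 and 56.0 CPM in Si8 (-3.09 ± 0.29, adjusted p = 9.12e-05). Both differences were larger than the spread between the libraries. Among other cells the values were -2.40 ± 0.27 for Duox2 and -3.25 ± 0.25 for Duoxa2.

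In Mxd1-high cells the Duox pair depended on the libraries. Duox2 was at 42.7 and 24.6 CPM in DC, against 90.3 and 39.2 CPM in Si8, so that the groups overlapped. Its log2 fold change of -1.46 ± 0.38 (adjusted p = 0.0222) was -0.83 and no longer called without the first Si8 library, and -1.07 and no longer called without the second DC library. With library totals alone it was -0.97 (adjusted p = 0.0905). Duoxa2 was at 19.7 and 10.99 CPM in DC, against 133 and 53.1 CPM in Si8, with no overlap (-3.13 ± 0.44, adjusted p = 0.00114, and -2.41 without the first Si8 library), but with the top 10% of each library as the class the call was lost (-4.94, adjusted p = 0.108).

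Against other cells, Duox2 was higher in Muc3-high cells in both tissues, by 1.00 ± 0.24 on the log2 scale in DC (adjusted p = 0.00402) and 0.70 ± 0.21 in Si8 (adjusted p = 0.0242). Neither held everywhere: without the first DC library the DC value for Duox2 was 0.56 (adjusted p = 0.179), and by the DESeq2 Wald test the Si8 value was 0.69 (adjusted p = 0.112). Mxd1-high cells exceeded other cells in Duox2 by 1.40 ± 0.34 in DC (adjusted p = 0.0149), but by 0.76 without the first DC library (adjusted p = 0.491) and 2.15 without the second, and in Duoxa2 by 1.24 ± 0.31 in Si8 (adjusted p = 0.0053; 0.0691 by the DESeq2 Wald test). The uncalled values were 0.46 ± 0.25 for Duox2 in Si8 and 1.45 ± 0.61 for Duoxa2 in DC. In both-high cells Duoxa2 was at 27.9 and 8.84 CPM in DC, against 319 and 70.7 CPM in Si8.

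The genes of this pair start 451 bases apart on opposite strands of chromosome 2, Duox2 at chr2:122279247-122298449 (minus) and Duoxa2 at chr2:122298900-122302885 (plus) of GRCm38. Their transcripts do not overlap, so their UMIs can be told apart. The 250 bases before the Duoxa2 start, which lie between the 2 starts, are shown as the stretch the pair shares (RefSeq, GRCm38.p6, chr2:122298650-122298899, plus strand).
Duoxa2: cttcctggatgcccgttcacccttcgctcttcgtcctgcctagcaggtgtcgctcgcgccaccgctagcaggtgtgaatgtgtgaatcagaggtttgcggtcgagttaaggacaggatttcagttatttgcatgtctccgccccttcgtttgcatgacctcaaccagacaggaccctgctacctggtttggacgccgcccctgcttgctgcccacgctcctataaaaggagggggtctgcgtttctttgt
None of the 3 motif cores searched above was in this window, on either strand, so it is printed without capitals.

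Dmbt1 was higher in Muc3-high than in other cells of both tissues. In Muc3-high cells it was at 123 and 169 CPM in DC, against 845 and 683 CPM in Si8. In other cells it was at 2.91 and 9.99 CPM in DC, against 108 and 200.4 CPM in Si8. In Mxd1-high cells it was low everywhere, at 15.8 and 14.1 CPM in DC, against 15.2 and 38.8 CPM in Si8, and these groups overlapped. The DC to Si8 log2 fold change was -2.66 ± 0.23 in Muc3-high cells (adjusted p = 5.35e-05), but within goblet-like clusters, where the only DC sum was 52 cells of the second library, it turned to 1.28 (adjusted p = 0.000861). With the top 10% of each library it was -0.93 and not called (adjusted p = 0.0604). The Dmbt1 value was -4.85 ± 0.59 in other cells (adjusted p = 0.00213), -6.09 without the second DC library and -4.24 without the first. In Mxd1-high cells it was -1.38 ± 0.44 (adjusted p = 0.0462), a call that library totals alone ended (-0.86, adjusted p = 0.143), as did leaving out either DC library (-1.48 and -1.27) or the second Si8 library (-0.51), while without the first Si8 library Dmbt1 was at -1.97. Within goblet-like clusters alone that value was -0.17 (adjusted p = 0.738), and stricter thresholds or the top 10% of each library turned it to 0.72 and 1.53.

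In Muc3-high cells Dmbt1 exceeded other cells by 4.34 ± 0.38 on the log2 scale in DC (adjusted p = 3.62e-07; 5.28 without the second DC library) and by 2.12 ± 0.32 in Si8 (adjusted p = 0.000159; 1.5 without the first Si8 library and 2.72 without the second). The difference between the tissues was itself called, at 2.22 ± 0.47 (adjusted p = 0.00738), where 8.21% of the 11541 genes tested were called, 4.94% positive and 3.27% negative, and 60.2% of the calls were positive with TMM and 40.1% with library totals. Without the first DC library that difference for Dmbt1 was 1.76 (adjusted p = 0.0842), without the second 3.15, without the second Si8 library 1.57, and by the DESeq2 Wald test 2.28 (adjusted p = 0.0936). In both-high cells the order of the tissues turned, with 592 and 550.0 CPM in DC, against 112 and 102 CPM in Si8 (1.57 ± 0.20, adjusted p = 0.000156). Outside the goblet-like clusters that value was 0.07 (adjusted p = 0.856), and the both-high cells there had 595 and 554 CPM in DC, against 508 and 376 CPM in Si8. Within the goblet-like clusters both-high Si8 cells had 8.33 and 16.2 CPM.

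Lypd8 was called lower in DC over all cells and in all 4 classes, but not under every setting. Over all cells it was at 1739 and 2111 CPM in DC, against 5021 and 3642 CPM in Si8, and was called lower (log2 -1.59 ± 0.28, adjusted p = 0.0123). Leaving out the first or the second DC library ended that call (adjusted p = 0.119 and 0.0739), as did taking only cells outside the goblet-like clusters (-0.96, adjusted p = 0.088). In Mxd1-high cells it was at 4060.0 and 3191 CPM in DC, against 7039 and 7658 CPM in Si8 (-1.52 ± 0.23, adjusted p = 0.00147), and the groups did not overlap. That call was lost on cells thinned to 2000 UMIs (-0.77, adjusted p = 0.242). In both-high cells Lypd8 was at -1.12 ± 0.27 (adjusted p = 0.00805), but at 0.13 outside the goblet-like clusters and 0.20 with the top 10% of each library, neither of them called, and at -0.28 with library totals alone (adjusted p = 0.383). In other cells it was at -1.48 ± 0.24 (adjusted p = 0.00667), a call lost without the first DC library (adjusted p = 0.0815). Mxd1-high cells exceeded other cells by 1.36 ± 0.18 on the log2 scale in DC (adjusted p = 0.000134) and 1.41 ± 0.18 in Si8 (adjusted p = 2.48e-05). The difference between the tissues was -0.06 ± 0.25 (adjusted p = 0.948), but within goblet-like clusters it was 0.59 and called (adjusted p = 0.00437). Outside goblet-like clusters these values for Lypd8, again with 1 Mxd1-high library a tissue, were -0.042 and 0.36 and neither was called. Muc3-high cells did not pass the test against other cells in DC (-0.31 ± 0.18) or Si8 (-0.26 ± 0.18). After thinning to 3000 UMIs, 93.2% and 95.4% of other DC cells had a Lypd8 UMI, against 98.2% and 97.4% of other Si8 cells. In the cycling clusters the share was 83.8% and 89.9% in DC, against 95.9% and 95.3% in Si8, so no group without the gene was at hand to show the background.

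Pigr passed the test between the tissues neither over all cells nor in any class. Over all cells it was at 1475 and 1609.9 CPM in DC, against 1301 and 1244 CPM in Si8, and the difference was not called (-0.14 ± 0.19, adjusted p = 0.635). The sign of that value for Pigr turned to 0.28 with library totals alone. Across the 4 classes and 4 libraries Pigr lay between 822 and 2060.1 CPM. Against other cells, neither Mxd1-high cells (-0.22 ± 0.10 in DC, -0.03 ± 0.10 in Si8) nor Muc3-high cells (0.11 ± 0.10 in DC, 0.18 ± 0.10 in Si8) passed the test. Mxd1-high DC cells had less Pigr than Muc3-high DC cells, by -0.33 ± 0.10 on the log2 scale (adjusted p = 0.0214), a call lost without the first (adjusted p = 0.117) or the second (adjusted p = 0.417) DC library. The 1 plasma-like cell of the first Si8 library had 0 Pigr UMIs.

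Set side by side, 5 of the 9 genes tested were higher in Mxd1-high than in other cells of DC (Saa1, Saa2, Ido1, Duox2 and Lypd8) and none was lower, where 7.36% of the 11541 genes tested were called higher and 2.95% lower. In Si8 5 were higher (Saa1, Ido1, Nos2, Duoxa2 and Lypd8) and Dmbt1 was lower (-2.17 ± 0.38, adjusted p = 0.000386), where 38.5% of genes were called, 20.5% higher and 18.0% lower. Goblet-like clusters alone gave -0.17 for Dmbt1 there. Of Mxd1-high DC calls 71.4% were higher with TMM and 38.6% with library totals, and of those of Si8 53.3% and 24.0%. In Muc3-high against other cells Nos2, Duox2 and Dmbt1 were higher and Saa1 was lower in DC, where 36.5% of genes were called, 20% higher and 16.5% lower, and Nos2, Duox2 and Dmbt1 were higher in Si8, where 11.5% were called higher (54.7% and 48.3% of calls higher with TMM, 71.3% and 83.4% with library totals). Both-high cells were higher than other cells in 5 genes in DC (Saa1, Saa2, Dmbt1, Lypd8 and Pigr), where 38.5% of genes were called, 20.6% higher and 17.9% lower, and in 7 in Si8 (Saa1, Saa2, Ido1, Nos2, Duox2, Duoxa2 and Lypd8), where 52.2% were called, 27.7% higher and 24.5% lower. Leaving out 1 library moved these counts between 3 and 7 in DC and between 6 and 7 in Si8: Pigr was lost in DC without the first (adjusted p = 0.118) or the second (adjusted p = 0.0575) DC library, Saa2 in DC without the first DC library (adjusted p = 0.114), and Saa2 in Si8 without the first Si8 library (adjusted p = 0.175). Directly compared, Mxd1-high cells exceeded Muc3-high cells in Saa1 by 5.85 ± 0.51 in DC and 4.01 ± 0.53 in Si8, and in Ido1 by 5.67 ± 0.58 in DC and 5.04 ± 0.23 in Si8, and were below them in Dmbt1 (-3.06 ± 0.48 in DC and -4.29 ± 0.39 in Si8). Here 34.0% of genes were called in DC, 17.3% higher and 16.7% lower, and 45.5% in Si8, 23.8% higher and 21.7% lower. The DC values were 4.60 and 7.72 for Saa1 without the first and the second DC library, and the Si8 values -3.48 and -5.30 for Dmbt1 without the first and the second Si8 library. The only gene of the 10 whose Mxd1-high against other difference was called unequal between the tissues was Dmbt1 (3.45 ± 0.75, adjusted p = 0.0189, with 4.62% of genes called, 2.53% positive and 2.09% negative), and that call was lost without the first DC library (2.78, adjusted p = 0.0842), with the second left out being 4.81. For the other 8 genes tested a miss of the threshold does not show that the tissues were equal.

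**Figure D3:**
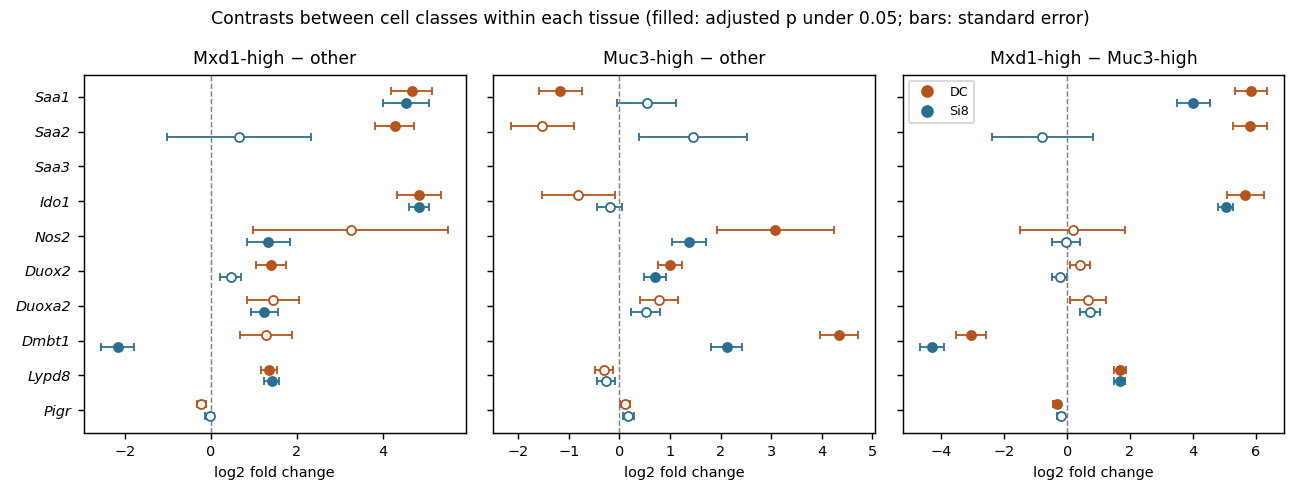
Log2 fold change between cell classes within DC and within Si8, with the standard error implied by the test as bars. Filled points have an adjusted p under 0.05, and Saa3 had too few UMIs. Saa1, Ido1 and Lypd8 lie right of 0 in the Mxd1-high against other panel in both tissues, and Dmbt1 lies right of 0 in the Muc3-high against other panel and left of 0 in the Mxd1-high against Muc3-high panel.

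The clusters placed these genes more sharply than the classes did, as a description without a test. Saa1 was high in 2 clusters, cluster 8, which is goblet-like, with 5552 and 4077 CPM in DC, against 1211 and 267 CPM in Si8, and cluster 10, named by colonic absorptive markers, with 7301 and 3890.4 CPM in DC, against 650.4 and 49.97 CPM in Si8. In clusters 1 to 7 and 9 it was at no more than 172 CPM in any library. Ido1 in cluster 8 was at 47.9 and 59.1 CPM in DC, against 2521 and 782 CPM in Si8. In cluster 10 it was at 2.58 and 0.00 CPM in DC, against 407 and 10.2 CPM in Si8. Lypd8 was highest in cluster 10 of DC, at 13402 and 13607 CPM, against 5360.3 and 4342 CPM in cluster 10 of Si8. Dmbt1 in cluster 10 was at 947 and 803 CPM in DC, against 627 and 483 CPM in Si8, while in cluster 5, led by mitotic genes, it was at 79.5 and 148 CPM in DC, against 1189.8 and 795 CPM in Si8. Pigr was lowest in cluster 8, at 699 and 696 CPM in DC, against 564 and 496 CPM in Si8. Cluster 8 held 118 and 108 DC cells and 306 and 113 Si8 cells, and cluster 10 held 47 and 203 DC cells and 52 and 166 Si8 cells. The marker list that names cluster 10 holds Saa1 and Lypd8.

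**Figure D4:**
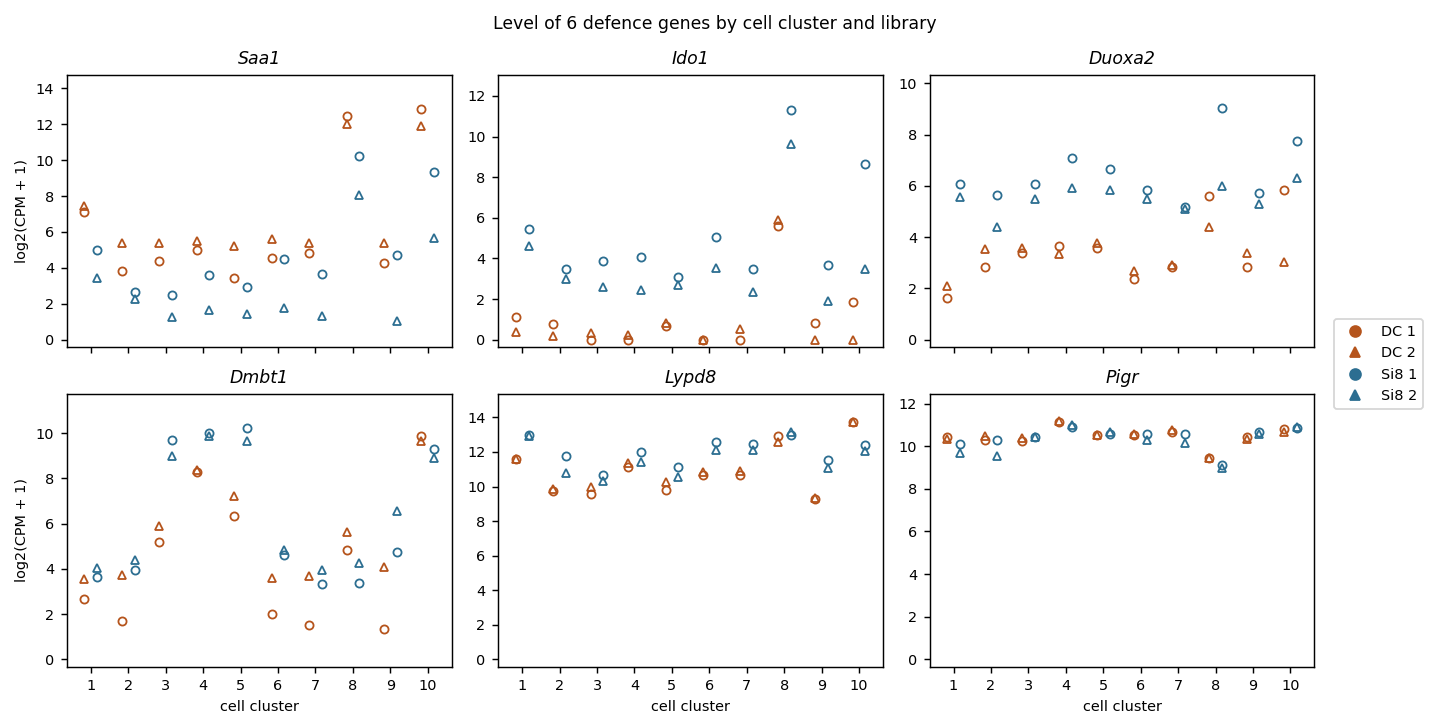
Level of 6 genes as log2(CPM + 1) in clusters 1 to 10 for the 4 libraries (circles, first library; triangles, second). Saa1 peaks in clusters 8 and 10, Ido1 in cluster 8, and Lypd8 in cluster 10 of DC. Dmbt1 peaks in clusters 4 and 10 of DC and in clusters 3, 4, 5 and 10 of Si8. Pigr is lowest in cluster 8 of each library.

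Within the cells past the Mxd1 threshold, Saa1 was found more often in cells that had an Ido1 UMI. After thinning to 3000 UMIs Saa1 was seen in 12 of 12 DC cells with Ido1 in the first library, against 63.0% (56.8 to 69.0%) of the 257 cells without it. In the second DC library the shares were 88.9% (51.8 to 99.7%) of 9 cells with Ido1 and 50.5% (46.4 to 54.6%) of 594 without. In Si8 they were 65.7% (60.0 to 71.0%) of 300 cells with Ido1 and 17.3% (13.0 to 22.3%) of 272 without in the first library, and 35.8% (25.4 to 47.2%) of 81 and 7.43% (4.82 to 10.9%) of 323 in the second. Duox2 was seen in 44.0% (24.4 to 65.1%) of 25 DC cells with Duoxa2 and 9.02% (5.74 to 13.3%) of 244 without in the first library, and in 57.7% (50.7 to 64.5%) of 208 Si8 cells with Duoxa2 and 22.5% (18.3 to 27.2%) of 364 without in the first Si8 library. In the second libraries the Duox2 shares were 3 of 15 cells (4.33 to 48.1%) with Duoxa2 and 5.95% of 588 without in DC, and 23.1% of 65 and 13.6% of 339 in Si8. Between Saa1 and Dmbt1 the order differed between libraries: Saa1 was seen in 57.9% of cells with Dmbt1 and 67.4% without in the first DC library, 54.7% and 48.0% in the second, 35.1% and 43.2% in the first Si8 library, and 6.98% and 13.9% in the second. The cells were pooled over all clusters, and both Saa1 and Ido1 were higher in cluster 8 than in cluster 1 of every library. The part of cluster mix in these shares was not tested. Cells of a library are not replicates, and no test was made of these shares.

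Genes of the same pathways were called in both directions over all cells, beside 12.9% of all genes called higher and 12% called lower. Where a list's counts lie near those shares they say nothing particular of the list. Of the 20 genes tested of an interleukin-22, interleukin-17 and STAT3 list, 6 were higher and 4 lower in DC over all cells. Reg3b and Reg3g, bactericidal lectins, were at 0.0159 to 0.152 CPM and 0.0381 to 0.698 CPM in DC, against 4852 to 8294 CPM and 4936 to 9505 CPM in Si8, while Cxcl1, a neutrophil attractant, was at 46.4 to 51.4 CPM in DC, against 2.24 to 4.16 CPM in Si8 (log2 3.55 ± 0.33, adjusted p = 0.00165). Of 23 interferon-gamma and NF-kB genes 5 were higher and 5 lower, with Irf1 (-1.24 ± 0.22, adjusted p = 0.0134) and Irf8 (-1.07 ± 0.21, adjusted p = 0.018) among those lower in DC. Of 14 oxidase and peroxide genes 2 were higher and 2 lower, among them Cyba, the small subunit shared by NADPH oxidases, at 116 to 124 CPM in DC, against 131 to 141 CPM in Si8 (-0.59 ± 0.14, adjusted p = 0.0321). Of 8 scavenger-receptor and partner genes 3 were lower, with Lgals9 furthest (-4.06 ± 0.20, adjusted p = 0.000305), and of 9 Ly6 family genes 4 were higher and 1 lower, with Ly6e higher (2.02 ± 0.22, adjusted p = 0.00278). Wars, the interferon-inducible tryptophanyl-tRNA synthetase, was lower in DC (-1.21 ± 0.23, adjusted p = 0.0156) and 1 of the 6 tryptophan genes tested was higher. Of 9 nitric oxide and arginine genes 1 was higher and 3 lower, among them Gch1 (-1.10 ± 0.27, adjusted p = 0.0333). Of 11 IgA transport genes 1 was higher and 1 lower, and of 4 acute phase genes tested 4 were lower, with Apoa1, a lipid carrier, at 0.0762 to 0.0793 CPM in DC, against 57.5 to 119 CPM in Si8. The whole acute phase list summed to 0.92 to 1.03 CPM in DC, against 64.8 to 135 CPM in Si8. Apoa1, like Reg3b above, passed the count filter only through Si8 and could be called only as lower. The count of 4 of 4 was thus in part fixed by the filter.

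The lists were also compared between classes. In Mxd1-high against other cells 14 of the 21 interferon-gamma and NF-kB genes tested were higher and 1 lower in Si8, where 20.5% of all genes were called higher, and 5 were higher and none lower in DC, where 7.36% were. Gbp2, a guanylate-binding protein induced by interferon, was at 12.6 to 46.6 CPM in Mxd1-high Si8 cells, against 1.82 to 4.53 CPM in other Si8 cells (3.39 ± 0.34). Nfkbia, the NF-kB inhibitor that NF-kB induces, was at 475 to 690.2 CPM in Mxd1-high DC cells, against 297 to 467 CPM in other DC cells (0.77 ± 0.12, adjusted p = 0.000535). Il17rc, an interleukin-17 receptor chain, was higher in Mxd1-high cells of DC (1.43 ± 0.17) and of Si8 (1.35 ± 0.16), as was Lgals3, a galectin of surface epithelium (1.97 ± 0.16 and 2.81 ± 0.17). In Muc3-high against other DC cells 9 of 14 oxidase and peroxide genes were higher and 1 lower, beside 20% and 16.5% of all genes, among them Noxa1, an activator of NADPH oxidases, at 43.2 to 55.5 CPM, against 9.79 to 15.0 CPM in other DC cells (1.86 ± 0.12). Depth and cluster makeup differ between these classes too, and their part was not tested.

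Over the 16 sums of 4 classes in 4 libraries, Duox2 and Duoxa2 were each other's closest gene among 4839 compared (Pearson r = 0.947 of log2(CPM + 1)). Saa1 was most like Mfsd6 (r = 0.963), Ido1 most like Odf2l (r = 0.980), Nos2 most like Apoa1 (r = 0.955), Dmbt1 most like Nlrp6 (r = 0.967), Lypd8 most like Cdhr5 (r = 0.976) and Pigr most like Atp5k (r = 0.968). The sums share libraries, depth and class makeup, and these values are descriptions.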

How the data were processed

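Single-cell 3' libraries (10x Genomics v2) were made from 2 DC and 2 Si8 samples, per the labels' protocols. The authors deposited tables of unnormalised UMI counts, made with Cell Ranger 2.1.1 on mm10, per the submitters' processing notes. Barcodes with under 500 genes or over 20% mitochondrial UMIs were dropped (10522 passed), and 279 with the highest Scrublet scores were removed as putative doublets, at 0.8% per 1000 cells, since Scrublet's own threshold marked 20. Cells were clustered with Scanpy 1.11.5 (2000 variable genes, 30 components, Leiden resolution 1) without the 10 genes, the pathway lists, Mxd1 or Muc3.

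UMIs were summed per library and class, leaving out sums of under 20 cells, and tested with edgeR 4.0.16 (TMM, filterByExpr with a minimum count of 10, quasi-likelihood F test, Benjamini-Hochberg adjustment over all genes tested, threshold 0.05). Tissue comparisons set 2 DC against 2 Si8 sums. Class contrasts and their tissue differences came from a fit over all 4 libraries with the library as a block. All adjusted p-values come from edgeR unless DESeq2 (1.42.0) is named. Values after ± and bars in the figures are standard errors implied by each log2 fold change and its test. They are unreliable where the fold change is near 0. CPM is per 1000000 UMIs of the kept cells in the sum. The fits were tested on simulated counts with the same spread for every gene and no shared library effect. Of changes of 1 on the log2 scale, 92.3% were recovered for DC against Si8 over all cells. For Mxd1-high against other DC cells 65.6% were recovered. Genes that vary more between libraries were not simulated. Library depth was 26075303 to 66880457 UMIs, and exact intervals cover counting error only. The 10 genes and the lists were chosen with earlier results of these data known, and the both-high class was added after seeing the data. Any of the 10 genes could be named in each comparison, and of each list at most the 3 with the largest called change and a mean of at least 20 CPM in the higher group. Gene positions are from GENCODE M21, in which 98.8% of the 28694 identifiers were found.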

Additional observations from a re-analysis of the deposited data

Results flagged for a closer look

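Dmbt1 differed between the tissues in both of its class contrasts, by a test of the difference itself. The difference of Mxd1-high minus other cells was higher in DC than in Si8 by 3.45 ± 0.75 on the log2 scale (adjusted p = 0.0189, edgeR), with values of 1.28 in DC, which was not itself called (adjusted p = 0.203), and -2.17 in Si8. That call was lost without the first DC library (2.78, adjusted p = 0.0842), with no block (adjusted p = 0.139), with stricter cell filters (adjusted p = 0.0583), with laxer thresholds (adjusted p = 0.281), with classes set on thinned cells (adjusted p = 0.292) and outside the goblet-like clusters (adjusted p = 0.616). The difference of Muc3-high minus other cells was higher in DC than in Si8 by 2.22 ± 0.47 (adjusted p = 0.00738, edgeR), with values of 4.34 in DC and 2.12 in Si8. That call was lost without the first DC library (1.76, adjusted p = 0.0842), with no block (adjusted p = 0.129), with laxer thresholds (adjusted p = 0.0569) and by the DESeq2 Wald test (adjusted p = 0.0936). Other DC cells held 2.91 and 9.99 CPM of Dmbt1, against 108 and 200.4 CPM in other Si8 cells, and the goblet-like share of other cells was 57.7% and 61.6% in DC and 38.2% and 38.4% in Si8. The Muc3 threshold was the same in both tissues, but Muc3 in other cells was at 20.1 and 66.8 CPM in DC, against 98.1 and 93.8 CPM in Si8. The part of the goblet-like share and of the Muc3 threshold in the differences was not tested.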

How the results depend on the processing

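Over 2312 values of single genes under alternative settings, 1953 kept their direction and side of the threshold, 127 lost a call, 83 gained one, 19 turned direction where the value was called before or after the change, and 130 turned sign with neither called. The number of genes called of the 10 moved as follows. DC against Si8 in Mxd1-high cells gave 7 in the design as set, 3 on cells thinned to 2000 UMIs and 1 with the top 10% of each library. Mxd1-high against other cells in DC gave 5, then 2 with no replicate block, 8 in goblet-like clusters, 0 outside them and 3 with classes set on cells thinned to 5000 UMIs. Muc3-high against other cells in DC gave 4, then 1 with no block, 2 on cells of 1000 genes or more with no more than 10% mitochondrial UMIs, 2 inside and 2 outside goblet-like clusters, 1 with the top 10% and 2 with thinned classes. Mxd1-high against Muc3-high cells gave 2 outside goblet-like clusters in DC, against 6, and 2 in Si8, against 4, and Mxd1-high against other cells in Si8 gave 1 there, against 6. Muc3-high against other cells in Si8 gave 3, then 5 with library totals, 1 with the DESeq2 Wald test, 6 with no filter, 1 with no block, 1 on thinned cells, 0 in goblet-like clusters and 5 with stricter thresholds. The Mxd1-high tissue difference gave 1, then 2 with no filter, 3 in goblet-like clusters and 0 with no block, with stricter cell filters, outside goblet-like clusters, with laxer thresholds or with thinned classes. The Muc3-high one gave 1, then 2 with no filter, 3 with stricter thresholds, 2 with the top 10% and 0 with DESeq2, no block or laxer thresholds. Leaving out a replicate, where a lone library is assumed to vary like the others, gave 5 to 9 for all cells, 5 to 7 in Mxd1-high, 6 to 7 in Muc3-high and 6 to 8 in other cells, 4 to 6, 2 to 5 and 5 to 6 for the 3 DC class contrasts, 5 to 6, 3 to 3 and 4 to 5 for those of Si8, and 0 to 1 and 0 to 2 for the tissue differences.

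Sums of under 20 cells drop out, so values for Mxd1-high cells outside goblet-like clusters, and for Muc3-high DC cells inside them, rest on 1 library. Directions that turned were those of Dmbt1 in DC against Si8 (Mxd1-high cells, 0.72 with stricter thresholds and 1.53 with the top 10%; Muc3-high cells, 1.28 in goblet-like clusters), and of Lypd8 in both-high cells (0.13 outside goblet-like clusters and 0.20 with the top 10%). In Mxd1-high against other DC cells outside goblet-like clusters Ido1 was -4.05 and Lypd8 -0.042, and against Muc3-high cells -3.83 and -0.70. In Muc3-high against other DC cells Saa1 was 1.70 and Nos2 -1.26 in goblet-like clusters, Lypd8 0.66 outside them, and Duox2 -0.35 with the top 10%. In Si8 Nos2 in Mxd1-high against other cells was -0.041 without the first Si8 library and 2.74 without the second, Ido1 in Muc3-high against other cells 2.32 with the top 10%, and in both-high against other cells Dmbt1 was 0.94 outside goblet-like clusters and 1.19 with laxer thresholds, and Pigr 0.33 outside them. The Mxd1-high tissue difference of Lypd8 was 0.59 in goblet-like clusters. The cause was not tested. Counts of calls over all genes moved too. Muc3-high against other cells gave 11 in goblet-like clusters, against 2739, in Si8, and 84, against 4208, in DC. Mxd1-high against other cells gave 149 outside them, against 4448, in Si8, and 30, against 1189, in DC. DC against Si8 in Mxd1-high cells gave 440 on thinned cells and 359 with the top 10%, against 2363, over all cells 1693 on thinned cells, against 3253, and the Mxd1-high tissue difference 1 with no block, against 533.

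Replicate numbers are shared by the tissues, but no label says what they tie together. Same-numbered deviations correlated at r = 0.33 over 4758 genes. With 2 pairs a shared batch or pairing can be neither shown nor set aside. The main tissue tests leave the replicate number out. With the replicate block 7 genes were called over all cells, 8 in Mxd1-high, 6 in Muc3-high and 7 in other cells.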
